A study of Mus musculus with 4 samples.

Results

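The 3 cardiac myosin heavy chain genes Myh6, Myh7 and Myh7b were described in single-nucleus RNA sequencing of neonatal mouse cardiomyocytes. They were chosen by name, and all 3 were among the 22574 genes of the deposited matrix. The study compared 4 libraries, 1 for each pairing of genotype and surgery. The hearts labelled WT carried loxP sites around Nrf1 (Nrf1fl/fl, gene Nfe2l1), and those labelled KO carried the same allele together with aMHC-Cre, a Cre recombinase under the alpha myosin heavy chain promoter, that is, the promoter of Myh6 itself. So the floxed allele was shared by every group, the transgene was present only in the KO groups, and its Cre is limited to cells that use the Myh6 promoter. Pups on a C57BL/6 background had the left anterior descending artery tied (MI) or were Sham operated at postnatal day 3, and the study's methods place collection on the following day. Tissue from below the plane of ligation was pooled from 4 to 6 hearts of 1 genotype per library, so each library is 1 pool and the effect of a surgery or genotype cannot be told apart from that of a library. The libraries are named WT-Sham, WT-MI, KO-Sham and KO-MI after their titles. They hold 1406, 2003, 3328 and 1848 nuclei in that order, 8585 in all, each with a deposited population label (CM1, CM2, CM4 or CM5).

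Myosin heavy chains are the motor proteins of the thick filament, and the heart uses fast and slow forms. Myh6 encodes the fast alpha chain, which dominates in the mouse ventricle after birth, whereas Myh7 encodes the slow beta chain, which dominates in the fetal ventricle and is re-expressed under load and after injury. Both genes lie side by side on 1 chromosome and are under opposite control by thyroid hormone. Myh7b is an older relative whose transcript in the heart mostly does not give a full-length protein and which hosts a microRNA. The ratio of Myh7 to Myh6 is widely read as a measure of the fetal programme.

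Each of the 3 genes carries a microRNA in an intron, and these sequences are shown because they tie the genes into 1 family. RefSeq (GRCm38.p6) held the mature form of all 3. The capitals mark the seed, bases 2 to 8, and the microRNAs themselves were not measured here.
mmu-miR-208a-3p in Myh6, chr14:54949072-54949093, minus strand: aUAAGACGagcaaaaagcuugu
mmu-miR-208b-3p in Myh7, chr14:54975710-54975731, minus strand: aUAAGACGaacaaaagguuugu
mmu-miR-499-5p in Myh7b, chr2:155622893-155622913, plus strand: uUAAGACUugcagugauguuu
The seeds of miR-208a-3p and miR-208b-3p were the same, UAAGACG, and that of miR-499-5p, UAAGACU, differed from it only in the last base.

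In the GENCODE M21 annotation of GRCm38, Myh6 (ENSMUSG00000040752.16) spans chr14:54941921-54966927 and Myh7 (ENSMUSG00000053093.16) spans chr14:54970684-54994626, both on the minus strand, while Myh7b (ENSMUSG00000074652.3) spans chr2:155611212-155634307 on the plus strand. Their lengths are 25.007, 23.943 and 23.096 kb. Myh7 overlaps Mhrt (chr14:54968678-54974349, plus strand), an antisense RNA of the locus that is known to oppose pathological hypertrophy. The use of strand in the counting is not stated, so reads from Myh7 and Mhrt where they overlap may not be told apart, and both are uncertain for that reason. Myh6 and Myh7 are also near-identical in part: 22.6% of the 50-base stretches of the annotated Myh6 transcript occurred in Myh7 as well, and 42.8% of those in its last 500 bases, where 3′ reads fall. From the Myh7 side the values were 22.2% and 51.0%. No such stretch was shared with Myh7b, and intron sequence was not compared. The methods state that counting used confidently mapped reads alone, so a read that matches both genes equally would be counted for neither, and levels of both may be understated.

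The stretches before the starts of Myh6 and Myh7 are shown because the balance of the RNA of these 2 genes is described below. The RefSeq table held 1 start for Myh6, 2 for Myh7 and 1 for Myh7b. Each stretch holds the 250 bases before a start listed by RefSeq, 5′ to 3′ on the gene's strand, and the capitals mark GGAATG, the MCAT element that TEAD factors bind.
Myh6, chr14:54966608-54966857, minus strand: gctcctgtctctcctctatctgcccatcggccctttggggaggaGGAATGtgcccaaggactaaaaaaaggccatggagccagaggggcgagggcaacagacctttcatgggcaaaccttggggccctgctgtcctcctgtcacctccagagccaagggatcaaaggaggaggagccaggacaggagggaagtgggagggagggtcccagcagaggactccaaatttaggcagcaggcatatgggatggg
Myh7, chr14:54994627-54994876, minus strand: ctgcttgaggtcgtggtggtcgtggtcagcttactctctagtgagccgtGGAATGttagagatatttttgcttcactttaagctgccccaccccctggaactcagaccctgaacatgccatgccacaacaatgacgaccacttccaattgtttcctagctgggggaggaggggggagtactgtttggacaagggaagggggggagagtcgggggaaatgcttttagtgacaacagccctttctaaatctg
The element began at base -206 of Myh6 and at base -201 of this Myh7 start. The RefSeq start of Myh6 lies inside the GENCODE span given above, so its stretch falls within that annotated gene, whereas the printed Myh7 stretch ends where the GENCODE span of Myh7 begins. The other listed Myh7 start, 77 bases downstream, had none in its 250 bases. Either strand was searched for each motif. GGAATG occurred in 12.6% of 32851 listed promoters of this length. The GATA element AGATAA occurred in 9.99% of them and in Myh7b, at base -133. The exact letters TATAAA of the TATA box occurred in 12.4% and in none of the stretches of the 3 genes. Other forms of that box were not searched. A match of letters is not a bound site, and no binding was measured.

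UMIs (unique molecular identifiers, counts of captured RNA molecules) were summed over the nuclei of a population in a library and given as CPM, counts per 1000000 UMIs of that sum. Each library was sequenced once, so no test was made. Values are given with exact 95% intervals, which cover counting error only and not the spread between nuclei, hearts or libraries. In CM4 of KO-MI, for example, the top 10 of 118 nuclei held 37.5% of the Myh7 UMIs. The intervals are therefore narrow even within 1 library. The libraries hold from 4984625 to 9106522 UMIs, with medians from 2572 to 3959 per nucleus. KO-Sham stood apart with the lowest median depth, 2572, and the highest median share of UMIs from the mitochondrial genome, 8.98%, against 5.29% to 6.58% in the other 3. 9 cell barcodes occurred in more than 1 library. The targeted gene went with the labels in only 1 surgery: Nfe2l1 stood at 62.2 CPM in WT-Sham and 50.5 in KO-Sham, and at 47.4 in WT-MI and 55.3 in KO-MI. Its log2 ratio of KO over WT was -0.30 (-0.51 to -0.09) for Sham and 0.22 (0.02 to 0.43) for MI. These are whole-gene counts, and a read outside the deleted exons does not check a deletion. The study itself measured Nrf1 by qPCR in KO and control hearts at a later age, and it reports lower proteasomal activity in KO hearts. A genotype below is that of the library labelled KO or WT. Among ventricular cardiomyocyte markers, all 9 of 9 had UMIs in every library, Ttn the most of them. RNA of other cells was also present in every CM1 sum: 5 red blood cell genes summed to 1891 to 3829 CPM, and 11 myeloid markers to 95.3 CPM in KO-Sham, 123 in WT-Sham, 269 in KO-MI and 542 in WT-MI. Of 8 myeloid markers compared in CM1 for the WT labels 6 were past 1.5-fold higher in MI, and 5 of 7 for the KO labels, against 8.08% and 10% of all genes compared, and Lyz2 and S100a8 were among them in both. Between the MI libraries 7 of 11 myeloid and 4 of 5 red blood cell markers were lower under the KO label, against 1.81% of all genes, while 2 of 3 atrial markers were higher, against 2.33%. Between the Sham libraries 3 of 7 endothelial markers (Kdr, Flt1 and Fabp4) and 2 of 4 atrial markers were higher under the KO label, against 6.21% of all genes. The 7 endothelial markers summed to 806 CPM in CM1 of KO-Sham and 442 in CM1 of WT-Sham. The part of this RNA in the values below was not tested.

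Myh6 was the leading heavy chain in every population of every library. Its CM1 level was 204 CPM per kilobase of gene length in WT-Sham, 232 in WT-MI, 223 in KO-Sham and 252 in KO-MI. On the same scale Myh7 lay at 16.3, 26.5, 13.1 and 37.5 CPM per kilobase in these 4 libraries. Myh7b lay at 19.4, 13.6, 13.9 and 11.7. Hence in CM1 Myh7b was above Myh7 per kilobase in WT-Sham, and Myh7 was above Myh7b in both MI libraries. In CM1 of KO-Sham the CPM intervals of Myh7b (309 to 335) and Myh7 (301 to 327) overlapped, so no order is given there. Sequence shared with Myh6 may understate Myh7, while Myh7b shared none. The order of WT-Sham was not that of every population. In CM4 and CM5 Myh7 was above Myh7b per kilobase in the Sham libraries too, for example 23.4 against 6.57 CPM per kilobase in CM4 of WT-Sham. Of the 7 other sarcomeric heavy chain genes listed, which serve skeletal and extraocular muscle, 4 were in the matrix and none had the 50 UMIs over both CM1 sums required here of any comparison. Myh8 had 14 UMIs over all nuclei, and Myh3, Myh1 and Myh15 had 2, 1 and 1.

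The deposited populations were themselves made by clustering on expression, so differences between them are descriptions. In every library CM4 nuclei had a lower median depth and a higher mitochondrial share than CM1 nuclei. In WT-Sham the medians were 1715.5 UMIs and 14.6% in CM4, against 3749 and 6.13% in CM1. Red blood cell genes there summed to 12805 CPM in CM4 and 2545 in CM1. The part of these differences in the CM4 values below was not tested. Across the 16 sums of population and library, Myh6 was highest in CM4 of WT-Sham (7786 CPM, 7513 to 8065) and CM4 of KO-MI (7615, 7326 to 7912), which did not differ beyond counting error. It was lowest in CM5 of the MI libraries, at 3541 CPM (3443 to 3640) in KO-MI and 3089 (3000 to 3180) in WT-MI. Myh7 was highest in CM4 of KO-MI, at 1950 CPM (1805 to 2103). CM5 of KO-MI (1293) and CM4 of WT-MI (1251) came next and did not differ from each other. From the ninth place down, only 1 neighbouring pair of Myh7 levels was separated by its interval. Myh7b ranged from 448 CPM (428 to 469) in CM1 of WT-Sham down to 50.8 (39.9 to 63.6) and 44.9 (34.5 to 57.4) in CM5 of WT-MI and KO-MI.

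**Figure D1:**
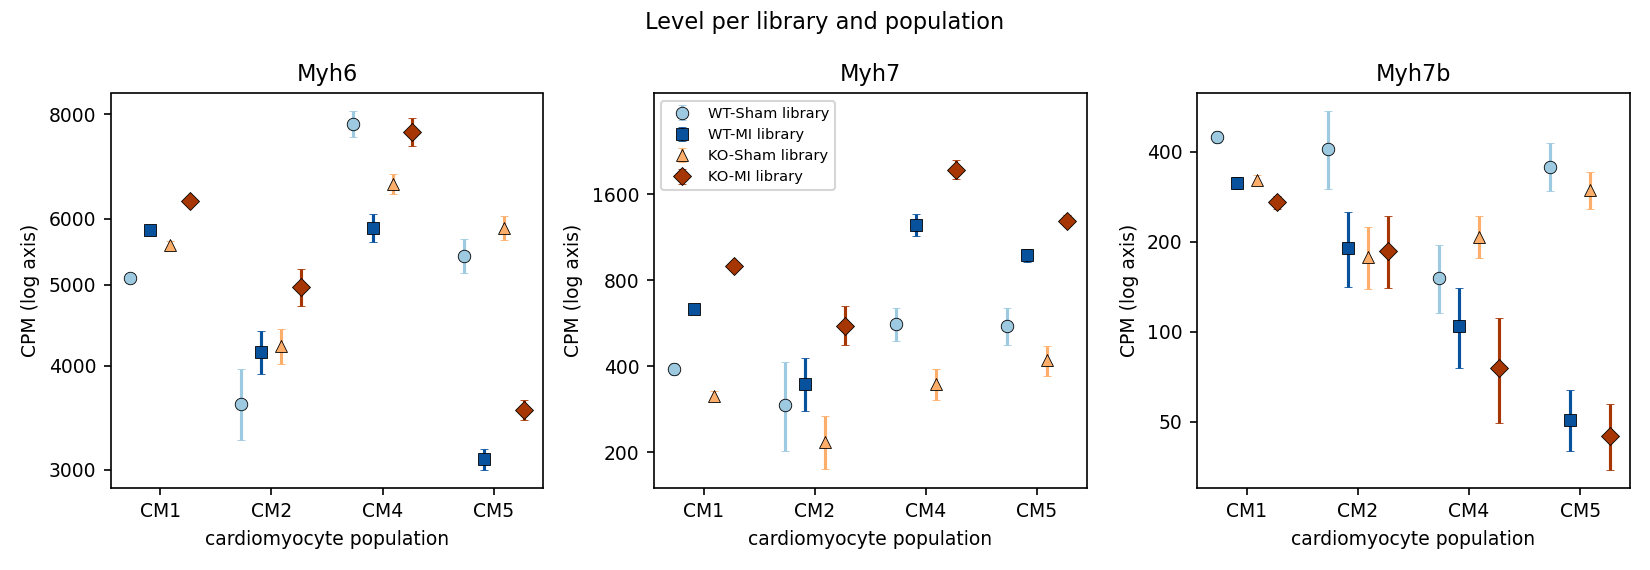
CPM (log axes that do not start at 0 and differ between panels) of Myh6, Myh7 and Myh7b in the 4 cardiomyocyte populations, 1 point per library, with exact 95% Poisson intervals that cover counting error only. Myh7 was higher in each MI library than in its Sham library in every population, from 293 to 346 CPM in CM2 of the WT labels up to 346 to 1950 CPM in CM4 of the KO labels; Myh7b stood at 50.8 and 44.9 CPM in CM5 of the MI libraries.

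The first question was how the chains differed between MI and Sham. In CM1, the largest population, Myh7 stood at 390 CPM (371 to 409) in WT-Sham and 635 (615 to 656) in WT-MI, and at 314 (301 to 327) in KO-Sham and 898 (873 to 924) in KO-MI. Both MI libraries were above both Sham libraries. The log2 ratio of MI over Sham was 0.70 (0.62 to 0.79) for the WT labels, 1.63-fold, and 1.52 (1.45 to 1.59) for the KO labels, 2.86-fold. Of the 3 genes, Myh7 alone was past 1.5-fold in CM1, and it was higher in MI under both labels. For the WT labels 8.08% of the 10574 genes with 50 or more UMIs were past 1.5-fold higher and 11.9% past it lower, and for the KO labels 10% of 11150 were higher and 10.9% lower. Myh7 was above 93.9% of genes in the first comparison and above 98.9% in the second. Among CM1 nuclei with no myeloid marker UMI, 205 of 1415 in WT-MI and 484 of 1308 in KO-MI, the log2 ratios were 0.79 and 1.44.

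Myh7 was also higher after MI in the smaller populations. In CM4, the population with an embryonic signature in the study's account, it was 561 CPM in WT-Sham and 1251 in WT-MI, 346 in KO-Sham and 1950 in KO-MI. The log2 ratios were 1.16 (0.93 to 1.39) for the WT labels and 2.49 (2.28 to 2.71) for the KO labels. In CM5 it was 553 and 978 CPM for WT-Sham and WT-MI, and 419 and 1293 for KO-Sham and KO-MI, with log2 ratios of 0.82 (0.60 to 1.05) and 1.63 (1.44 to 1.82). CM2 gave 293 and 346 CPM for the WT labels, where only 27 nuclei of WT-Sham stand behind the value and the interval of the log2 ratio, 0.24 (-0.35 to 0.86), includes no difference. For the KO labels CM2 gave 217 and 555 CPM, a log2 ratio of 1.35 (0.97 to 1.75). The excess of the KO over the WT log2 ratio was 0.81 (0.70 to 0.92) in CM1, 1.12 (0.39 to 1.83) in CM2, 1.34 (1.02 to 1.65) in CM4 and 0.81 (0.51 to 1.10) in CM5. All 4 intervals lie above 0, yet each rests on the same 4 libraries.

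Myh6 was slightly higher in MI in CM1 and lower in CM5. In CM1 it was 5093 CPM (5025 to 5163) in WT-Sham and 5809 (5747 to 5872) in WT-MI, 5582 (5528 to 5636) in KO-Sham and 6300 (6232 to 6367) in KO-MI. The log2 ratios of 0.19 (0.16 to 0.21) and 0.17 (0.15 to 0.20) differed by -0.02 (-0.05 to 0.02). In CM5 it was 5418 CPM in WT-Sham and 3089 in WT-MI, 5846 in KO-Sham and 3541 in KO-MI, with log2 ratios of -0.81 (-0.89 to -0.73) and -0.72 (-0.78 to -0.66). Both MI libraries were therefore below both Sham libraries in CM5 and above both in CM1 on the CPM scale. Over all nuclei the log2 ratio for the WT labels was -0.01 (-0.03 to 0.01), so its direction in CM1 was not that of the whole library. In CM4 the labels disagreed: the log2 ratio was -0.41 (-0.49 to -0.34) for the WT labels, from 7786 to 5848 CPM, and 0.21 (0.14 to 0.27) for the KO labels, from 6605 to 7615. In that population 6 atrial markers summed to 1216 CPM in KO-MI against 70.8, 112 and 71.2 in WT-Sham, WT-MI and KO-Sham, with Bmp10 at 0 in KO-MI. Among CM4 nuclei with no UMI of any atrial marker, 77 of 118 in KO-MI, the ratios were -0.56 and 0.13.

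Myh7b was lower in MI in most of these sums. In CM1 it was 448 CPM (428 to 469) in WT-Sham and 314 (299 to 328) in WT-MI, 322 (309 to 335) in KO-Sham and 271 (257 to 285) in KO-MI. The log2 ratios were -0.51 (-0.61 to -0.42) and -0.25 (-0.34 to -0.15), neither past 1.5-fold. CM5 showed the widest gap of any of the 3 genes. There Myh7b was 357 CPM (295 to 428) in WT-Sham and 50.8 in WT-MI, 297 (257 to 343) in KO-Sham and 44.9 in KO-MI. The log2 ratios were -2.81 (-3.25 to -2.38) and -2.73 (-3.16 to -2.31), and only 0.13% and 0.12% of the genes compared in CM5 had lower ones. In CM4 they were -0.54 (-1.13 to 0.05) and -1.46 (-2.12 to -0.85), from 152 to 104 CPM for the WT labels and from 208 to 75.7 for the KO labels. In CM2 they were -1.10 (-1.71 to -0.49) and 0.07 (-0.47 to 0.60).

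**Figure D2:**
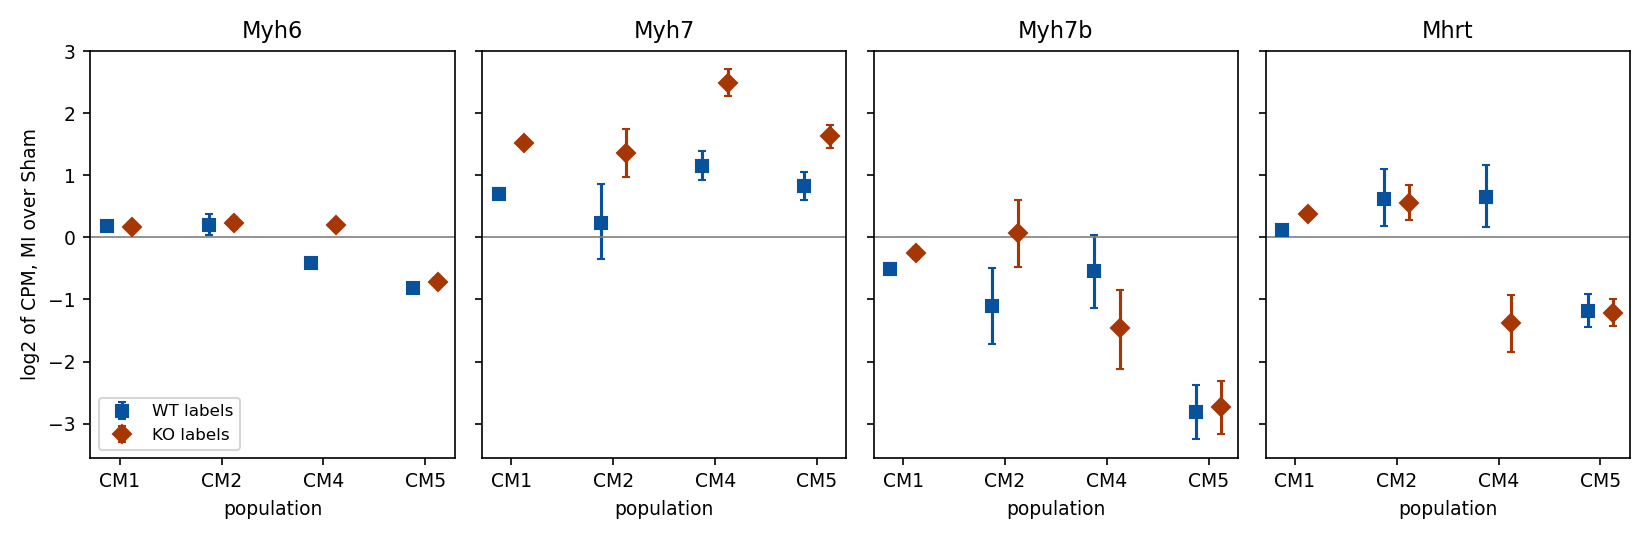
Log2 ratio of CPM, MI over Sham, of the 3 heavy chain genes and the antisense RNA Mhrt by population, for the WT labels (squares) and KO labels (diamonds), with exact 95% intervals for counting error only. The Myh7 points lie above 0, between 0.24 and 2.49, the Myh7b points in CM5 lie at -2.81 and -2.73, and Mhrt in CM4 lies at 0.66 for the WT labels and -1.37 for the KO labels.

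The ratio of Myh7 to Myh6 UMIs needs no scaling by depth. In CM1 it was 0.0765 (0.0727 to 0.0805) in WT-Sham and 0.109 in WT-MI, 0.0562 in KO-Sham and 0.143 in KO-MI. Put as log2 ratios of MI over Sham, these are 0.51 (0.43 to 0.60) and 1.34 (1.27 to 1.42). In CM4 it was 0.0721 and 0.214 for the WT labels and 0.0524 and 0.256 for the KO labels, which is 2.97-fold and 4.88-fold. In CM5 it was 0.102 and 0.317, and 0.0716 and 0.365, which is 3.10-fold and 5.10-fold. In CM2 it was 0.0815 and 0.0833, 1.02-fold with a log2 interval of -0.58 to 0.67, and 0.0514 and 0.112, 2.17-fold. The 4 highest of the 16 values were thus CM5 and CM4 of the MI libraries, each above the next beyond counting error. In the Sham libraries CM4 did not stand above CM1: its log2 ratio to CM1 was -0.09 (-0.30 to 0.12) in WT-Sham and -0.10 (-0.30 to 0.09) in KO-Sham, against 0.97 (0.82 to 1.11) in WT-MI and 0.84 (0.71 to 0.98) in KO-MI. CM5 was above CM1 in all 4 libraries, by 0.42 (0.18 to 0.65) in WT-Sham, 0.35 (0.16 to 0.54) in KO-Sham, 1.53 (1.43 to 1.63) in WT-MI and 1.36 (1.27 to 1.45) in KO-MI.

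**Figure D3:**
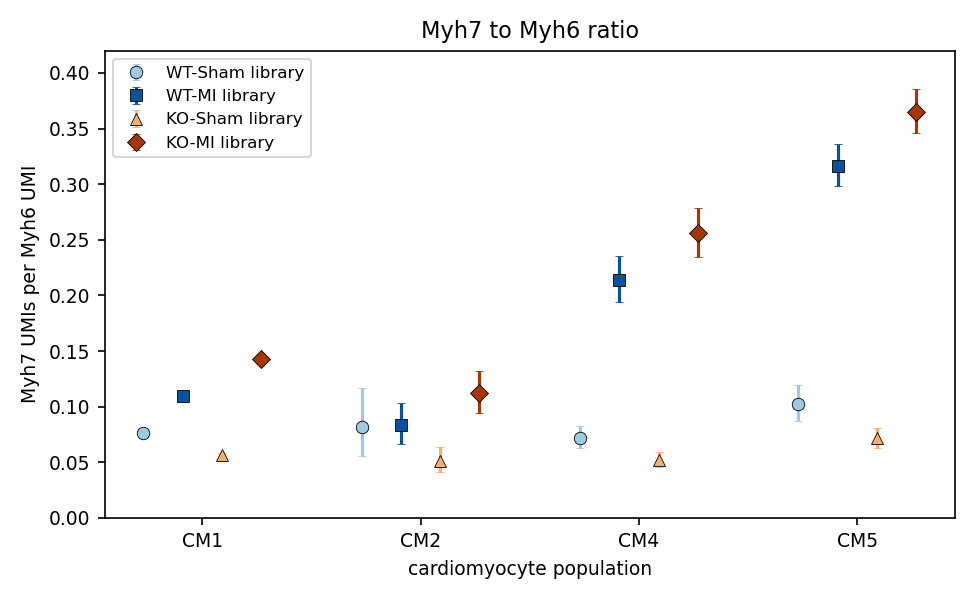
Myh7 UMIs per Myh6 UMI by population and library, with exact 95% intervals for counting error only. CM5 (0.317 and 0.365) and CM4 (0.214 and 0.256) of WT-MI and KO-MI sit above all other sums, and the Sham libraries range from 0.0514 to 0.102.

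The mix of populations also differed, since CM5 held 6.33% of nuclei in WT-Sham and 16.9% in WT-MI, and 7.03% in KO-Sham and 19.2% in KO-MI. The populations of each MI library were weighted by their shares of UMIs, not of nuclei, in its Sham library. This left the all-nuclei log2 ratio of Myh7 at 0.76 against 0.81 observed for the WT labels. For the KO labels it was 1.64 against 1.66. For Myh7b the values were -0.59 against -0.74 and -0.37 against -0.50. For Myh6 they were 0.08 against -0.01 and 0.13 against 0.04, so its sign for the WT labels differed with the mix held. For Myh7 and Myh7b the direction was the same with the mix held. The causes of these shifts were not tested.

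The second question was how the KO labels differed from the WT labels at equal surgery. None of the 3 genes was past 1.5-fold in CM1. Among all genes compared, 2.33% were past it higher and 1.81% lower for MI, and 6.21% higher and 4.09% lower for Sham. Myh7 had opposite directions: its log2 ratio of KO over WT in CM1 was 0.50 (0.44 to 0.56) for MI and -0.31 (-0.41 to -0.22) for Sham. The median of all genes in the Sham comparison was -0.12, which Myh7 was also below. The same opposition appeared in CM4, 0.64 (0.47 to 0.81) and -0.70 (-0.96 to -0.43), and in CM5, 0.40 (0.30 to 0.50) and -0.40 (-0.68 to -0.12). In CM2 the MI value was 0.68 (0.30 to 1.07) and the interval of the Sham value, -0.43 (-1.03 to 0.19), includes 0. Myh6 was slightly higher under the KO label in CM1, at 0.12 (0.10 to 0.14) for MI and 0.13 (0.11 to 0.16) for Sham. Myh7b was lower under the KO label in CM1, at -0.21 (-0.31 to -0.11) for MI and -0.48 (-0.56 to -0.39) for Sham. In CM1 nuclei with no myeloid UMI the first of these was -0.13 (-0.36 to 0.10), an interval that includes 0. CM4 of the Sham libraries went the other way for both genes, with Myh6 at -0.24 (-0.30 to -0.17) and Myh7b at 0.46 (0.02 to 0.91). In CM2 and CM5, and in CM4 of the MI libraries, Myh6 was higher under the KO label, by 0.11 to 0.38. For Myh7b the interval there excluded 0 only in CM2 of Sham, at -1.20 (-1.76 to -0.64). KO-Sham, the library with the lowest depth and highest mitochondrial share, enters every Sham value here. Among CM1 nuclei at or under the overall median of that share, 638 of 2619 in KO-Sham, the Myh7 values were 0.42 and -0.37.

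Single nuclei were read next. Counts were thinned to 1000 UMIs a nucleus, leaving out 6 nuclei of WT-Sham and 1 of WT-MI. At least 1 Myh7 UMI was then seen in 27.3% of CM1 nuclei of WT-Sham, 41.2% of WT-MI, 26.3% of KO-Sham and 53.9% of KO-MI. Without thinning the shares were 60.7%, 81.6%, 50.9% and 90.7%. In CM5, Myh7b UMIs were seen in 24.7% of thinned nuclei of WT-Sham and 28.2% of KO-Sham, against 5.01% of WT-MI and 4.79% of KO-MI; unthinned, 66.3% and 52.1% against 16.2% and 13.5%. Only cardiomyocyte nuclei are in the files, so no cell type that should lack these genes could give a background share. The Myh7 counts were more uneven than those of Myh6. In CM1 the tenth of thinned nuclei with most Myh7 held 57.0% of its UMIs in WT-Sham, 43.5% in WT-MI, 50.7% in KO-Sham and 40.2% in KO-MI, a measure that also depends on the mean.

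Among nuclei with 10 or more UMIs of Myh6 and Myh7 together, Myh7 made up a median 4.94% of both in CM1 of WT-Sham, 7.41% of WT-MI, 4% of KO-Sham and 9.80% of KO-MI. In CM5 the medians were 5.26% in WT-Sham and 21.7% in WT-MI, and 4.76% in KO-Sham and 25% in KO-MI. Nuclei with more Myh7 than Myh6 UMIs numbered 8 of 1406 in WT-Sham, 69 of 2003 in WT-MI, 0 of 3328 in KO-Sham and 63 of 1848 in KO-MI. The count of 0 allows a share of up to 0.0901%, for counting error only. Of these, 47 in WT-MI and 51 in KO-MI were in CM5, 13.9% and 14.4% of its nuclei. So in the great majority of nuclei of every library Myh6 UMIs were at least as many as Myh7 UMIs.

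**Figure D4:**
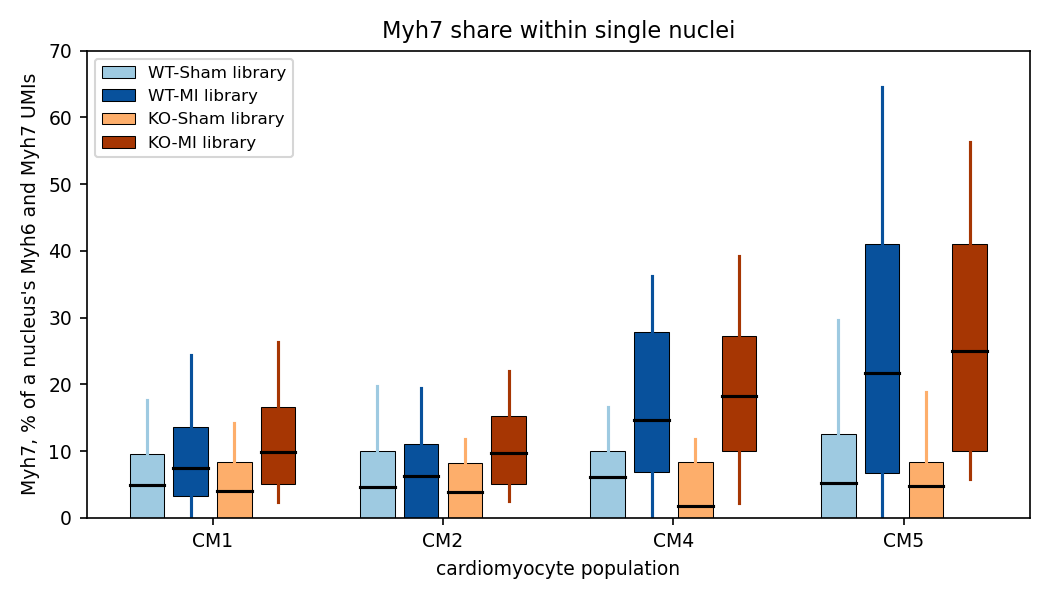
Myh7 as a percent of the Myh6 and Myh7 UMIs of a nucleus, over nuclei with 10 or more of them, by population and library. Bars run from the 25th to the 75th percentile, black lines mark the median and thin lines run from the 10th to the 90th. In CM5 the medians were 21.7% and 25% in WT-MI and KO-MI against 5.26% and 4.76% in WT-Sham and KO-Sham.

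Each nucleus also had a label transferred from an earlier reference. Most nuclei of the deposited CM2 carried the transferred label CM5 (197 of 275), and most of CM5 carried CM2 (743 of 1017). The deposited CM1 also held nuclei whose transferred label was CM3 or CM4. The ratio of Myh7 to Myh6 in WT-Sham was 0.104 (0.0917 to 0.118) in the 142 CM3-labelled nuclei against 0.0727 (0.0687 to 0.0769) in the 934 labelled CM1. In the other 3 libraries both labels gave closer values, 0.112 and 0.109 in WT-MI, 0.0566 and 0.0563 in KO-Sham, and 0.147 and 0.140 in KO-MI. The CM4-labelled nuclei of CM1 gave 0.0598 (0.0383 to 0.0895) in WT-Sham, 0.0929 (0.0741 to 0.115) in WT-MI and 0.0510 (0.0391 to 0.0655) in KO-Sham, each below the CM1-labelled value but with an interval that includes it. Only in KO-MI, with 17 such nuclei, was the value above, at 0.215 (0.174 to 0.264).

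Mhrt, the antisense RNA, was followed because it overlaps Myh7. In CM1 it was 664 CPM in WT-Sham and 721 in WT-MI, 588 in KO-Sham and 766 in KO-MI. In CM5 it was lower in both MI libraries, 550 to 243 CPM for the WT labels and 552 to 239 for the KO labels, with log2 ratios of -1.18 (-1.44 to -0.91) and -1.21 (-1.43 to -0.99). There Myh7 was higher in the MI libraries while Mhrt was lower. CM4 differed by label, with Mhrt at 142 CPM in WT-Sham, 223 in WT-MI, 361 in KO-Sham and 140 in KO-MI. Its log2 ratio was 0.66 (0.16 to 1.16) for the WT labels and -1.37 (-1.85 to -0.92) for the KO labels, and 48 to 264 UMIs stand behind each value. The uncertainty about strand applies to all of these.

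Genes that work with the heavy chains were taken from fixed lists, in CM1 and against the same share of all genes past 1.5-fold. Of the 6 fetal and stress genes, 5 were higher in WT-MI than in WT-Sham and 1 lower, and 4 were higher and 1 lower for the KO labels. Over all genes 8.08% were higher and 11.9% lower for the WT labels, and 10% and 10.9% for the KO labels. The medians of the list were 3.28 and 2.70 in log2, against -0.07 and 0.04 over all genes. Nppa, the atrial natriuretic peptide and the member with most UMIs, went from 148 to 1961 CPM for the WT labels and from 256 to 2374 for the KO labels. Its log2 ratios were 3.73 (3.61 to 3.85) and 3.21 (3.14 to 3.28). Nppb, the brain natriuretic peptide, had log2 ratios of 4.19 and 2.98, Ankrd1, a stress-responsive titin partner, 3.27 and 3.05, and Acta1, skeletal actin, 3.28 and 2.42. Acta2, smooth muscle actin, was past 1.5-fold for the WT labels, at 0.67. Myh7, with 0.70 and 1.52, had smaller log2 ratios than these first 4. Unlike Myh7, all 4 had a larger log2 ratio under the WT labels. Nppa, Nppb, Acta1 and Acta2, 4 of the 6, were past 1.5-fold higher in KO-Sham than in WT-Sham, against 6.21% of all genes. Their log2 ratios there were 0.79 to 1.38. Tnni1, the slow fetal troponin I, was lower in MI under both labels, at -0.75 each.

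Among the 9 partners of the mature cardiomyocyte none was past 1.5-fold higher in MI. Over all genes 8.08% were past 1.5-fold higher and 11.9% lower for the WT labels, and 10% and 10.9% for the KO labels. Pln (phospholamban, -1.10) and Ckm (muscle creatine kinase, -0.86) were past it lower for the WT labels. For the KO labels 6 were lower: Pln (-1.33), Ckm (-1.27), the cytochrome oxidase subunits Cox6a2 (-1.21) and Cox7a1 (-1.17), Tnni3 (cardiac troponin I, -1.04) and Tnnt2 (cardiac troponin T, -0.60). Ryr2, the calcium release channel and the member with most UMIs, had -0.34 and -0.19. In the comparison of Sham libraries 5 of the 9 were higher under the KO label, against 6.21% of all genes. These were Actc1, Tnni3, Cox6a2, Ckm and Cox7a1, by 0.77 to 0.94. The medians of the list were -0.54 and -1.04 for MI over Sham.

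Of 19 thick filament partners, kinases and chaperones, 15 had enough UMIs in each comparison of MI and Sham. Past 1.5-fold, 3 were higher and 2 lower for the WT labels, and 3 and 1 for the KO labels. Over all genes 8.08% were higher and 11.9% lower for the WT labels, and 10% and 10.9% for the KO labels. Mybpc2 and Trim54, named next, had only 200 and 345 UMIs over all nuclei. Higher in MI under both labels were Myom1 (an M-band protein, 0.61 and 0.71), Mybpc2 (fast myosin-binding protein C, 1.66 and 1.80) and Trim54 (a sarcomeric ubiquitin ligase, 1.39 and 1.77). Myom2, another M-band protein, was lower at -0.95 and -0.91. Mylk3, the cardiac myosin light chain kinase, was past 1.5-fold lower for the WT labels, at -0.64. Ttn (titin), the member with most UMIs, stood at 0.22 and 0.33. The medians of the list were -0.02 and 0.28. Between the Sham libraries Trim54 was past 1.5-fold lower under the KO label, at -0.67 with an interval of -1.47 to 0.14. It was 1 of 14 compared there, against 4.09% of all genes.

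The myosin light chains sit on the necks of the heavy chains. Of 11 listed, 8 were compared for the WT labels and 9 for the KO labels. Past 1.5-fold in MI, 2 were higher and 0 lower for the WT labels, and 2 and 2 for the KO labels. Over all genes the shares were 8.08% higher and 11.9% lower for the WT labels, and 10% and 10.9% for the KO labels. The ventricular chains Myl2 and Myl3, with most UMIs, had -0.40 and -0.53 for the WT labels and were past 1.5-fold lower for the KO labels, at -0.87 and -1.07. Myl9, a smooth and non-muscle chain, was higher at 1.06 and 0.70, Myl12a higher at 0.62 for the WT labels, and the atrial chain Myl7 higher at 0.73 for the KO labels. The medians of the list were 0.36 and 0.10. Between the Sham libraries 6 of 8 were higher under the KO label, against 6.21% of all genes. These were Myl2, Myl3, Myl4, Myl7, Myl9 and Myl12a, by 0.68 to 0.92. Between the MI libraries 2 of 9 were higher, the atrial chains Myl4 (0.91) and Myl7 (1.05), against 2.33% of all genes. Among the non-muscle and smooth muscle heavy chains, Myh9 was higher in MI, at log2 ratios of 0.91 and 1.08, and Myh14 was lower, at -0.88 and -0.69 with the last interval, -1.58 to 0.15, reaching past 0. Myh14, a non-muscle chain with few UMIs, was also lower under the KO label, at -1.06 (-1.95 to -0.23) for MI and -1.25 (-1.88 to -0.64) for Sham. The medians of that list of 3 compared genes were 0.49 and 0.19 for MI over Sham. Under each label 1 of the 3 was higher and 1 lower in MI, beside the shares of all genes given above. For KO over WT 1 of 3 was lower in each surgery, against 1.81% of all genes for MI and 4.09% for Sham.

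Of 23 regulators of the Myh6 and Myh7 promoters compared, 1 was higher and 4 lower for the WT labels, and 0 were higher and 2 lower for the KO labels, with medians of -0.16 and 0.07. Over all genes the shares were 8.08% higher and 11.9% lower for the WT labels, and 10% and 10.9% for the KO labels. Thra, the thyroid hormone receptor alpha, was lower in MI under both, from 160 to 94.3 CPM and from 151 to 88.9, with log2 ratios of -0.76 (-0.92 to -0.59) and -0.77 (-0.92 to -0.61). For the WT labels Tbx5 (-0.95) and Rxrb (-1.08), a T-box factor and a retinoid X receptor, were lower, and Srf, serum response factor, was past 1.5-fold at 0.69 with an interval of -0.04 to 1.47. Myocd, a coactivator of Srf with most UMIs of the list, stood at -0.18 and 0.05. Tead1, a TEAD factor, stood at 0.23 and 0.43, and its binding to the printed stretches was not measured. Between the Sham libraries Srf (0.74) and the homeobox factor Nkx2-5 (0.59) were higher under the KO label. They were 2 of 23 compared, beside 6.21% of all genes.

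**Figure D5:**
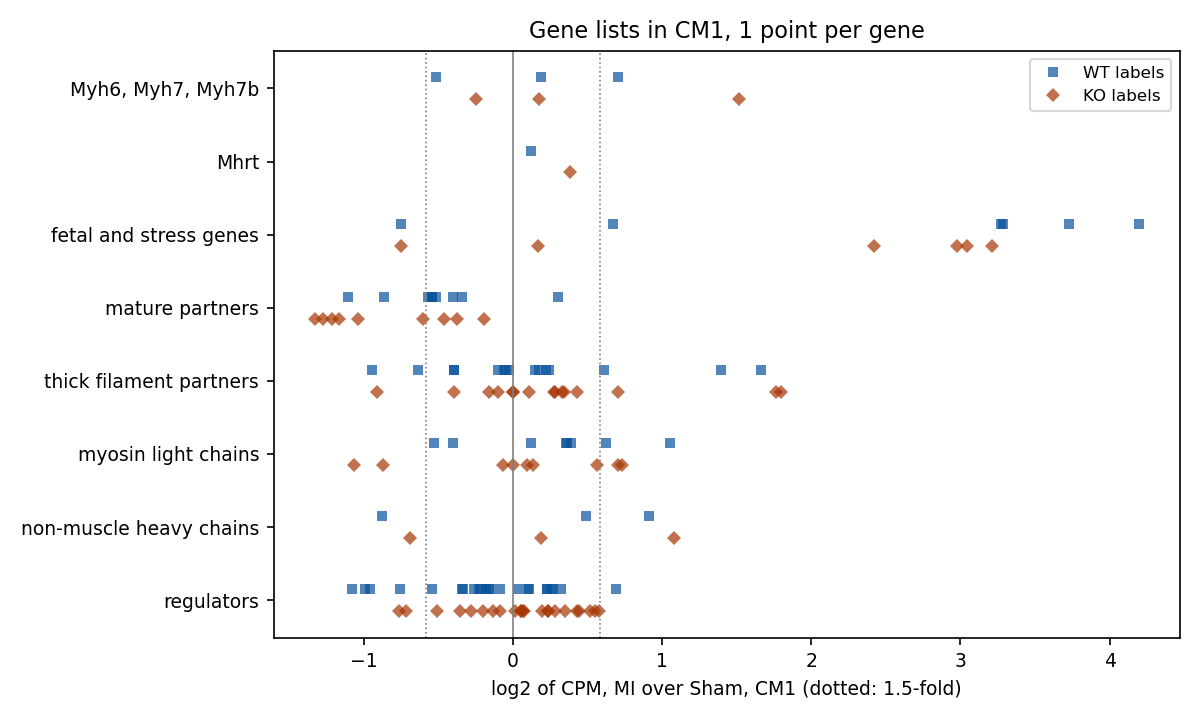
Log2 ratio of CPM, MI over Sham, in CM1, 1 point per gene with 50 or more UMIs over both sums, by gene list, for the WT labels (squares) and KO labels (diamonds); dotted lines mark 1.5-fold. Most fetal and stress genes lie between 2.42 and 4.19, Myh7 at 0.70 and 1.52, and most regulators between the dotted lines.

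The genes most like each heavy chain were ranked by Pearson's r of log2(CPM + 10) over the 16 sums, among 7080 genes with 500 or more UMIs in all. Sums of 1 library share depth and RNA quality, so r is a description. Nearest to Myh6 were Mpc1 (0.91), a mitochondrial pyruvate carrier, Mybpc3 (0.89), the cardiac myosin-binding protein C, Idh3a (0.87), Prkaca (0.86) and Marc2 (0.85). Nearest to Myh7 were Ier5, Tnfrsf12a, Actg1 and Clu, all at 0.91, and Hspa5 at 0.90, which encodes a chaperone of the endoplasmic reticulum. Nearest to Myh7b were Rnf207 (0.96), Filip1l (0.95), Abcd3 (0.95), Smtn (0.94) and Rora (0.94). Among themselves, r was 0.17 for Myh6 and Myh7, 0.23 for Myh6 and Myh7b, and -0.69 for Myh7 and Myh7b.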

How the data were processed

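Nuclei of total heart tissue were made into 10x Genomics 3′ libraries (kit v2 in the labels, v3 in the study's methods). The methods of the study name Cell Ranger, whose version is not given in the sources used here, with an mm10/GRCm38 pre-mRNA reference, so that intron reads count, doublets were removed with Scrublet, and cardiomyocyte clusters from Seurat 3 were kept. The authors deposited UMI counts per gene and nucleus, which are raw counts and not normalized, and per nucleus its library, UMI count, percent of mitochondrial UMIs, final population label and transferred label. The matrix gave the deposited UMI totals in 100% of nuclei. Of the deposited columns per nucleus, 11 were not used here. The strain field of the labels reads differently in each sample, while the protocol names C57BL/6 for all.

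UMIs were summed per library and population and expressed as CPM of the sum. Groups came from sample titles, with 1 library each, so no test was run. Exact 95% intervals were Poisson for CPM and conditional binomial for log2 ratios, and differences of log2 ratios combined both intervals by the squares of their arms. A gene was compared where both sums together held at least 50 UMIs, 1.5-fold was the limit used, and a gene with 0 UMIs in 1 sum was given 3 there, the limit that a count of 0 allows. The members, gene lists and comparisons were chosen with earlier results of these data known. Named genes are the 3 members, Nfe2l1, Mhrt, the member of each list with most UMIs, members past 1.5-fold, and the 5 genes most like each member. Alternatives used TMM factors (edgeR 4.0.16 in R 4.3.3), median-of-ratios size factors, another denominator, thinning to 1000 UMIs, the transferred label and all nuclei. For the transferred label, each population was replaced by all nuclei with its most frequent transferred label. CM2 was thus read from nuclei labelled CM5, and CM5 from nuclei labelled CM2. Python 3.11.15, NumPy 2.4.6 and SciPy 1.17.1 were used, and the intervals were tested on simulated counts. Sequences are from RefSeq. Of the members past 1.5-fold, 1 is not reported here by name.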

Additional observations from a re-analysis of the deposited data

Results flagged for a closer look

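Several log2 ratios had opposite signs in 2 groups, with both intervals clear of 0, although with 1 library per group none of these differences was tested. Those of KO over WT in MI less those in Sham were 0.81 for Myh7 in CM1, 1.34 in CM4 and 0.81 in CM5, with Myh7 higher under the KO label in MI and lower in Sham in each. The ratio of Myh7 to Myh6 gave 0.83 in CM1, 1.09 in CM2, 0.72 in CM4 and 0.72 in CM5 in the same directions. With counts thinned to 1000 UMIs a nucleus, the interval of the MI ratio included 0 in CM2 (0.13, -0.66 to 0.95), CM4 (0.28, -0.02 to 0.59) and CM5 (0.15, -0.09 to 0.39). By the transferred label, where nuclei labelled CM5 stand for CM2, both intervals of CM2 included 0. The value for Nfe2l1 over all nuclei was 0.52, with the same directions.

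Myh6 in CM4 was lower in MI than in Sham for the WT labels and higher for the KO labels, a difference of 0.62, and by construction KO over WT between surgeries differed by the same 0.62. Thinned, KO over WT for Myh6 in CM4 of Sham was -0.086 (-0.19 to 0.01). Mhrt in CM4 was higher in MI for the WT labels and lower for the KO labels, a difference of -2.03, which is also that of KO over WT between surgeries. In CM1, KO over WT for Mhrt was 0.09 in MI and -0.17 in Sham, a difference of 0.26. The sums of red blood cell genes in CM4 ran from 3538 CPM in KO-MI to 12805 in WT-Sham, and those of atrial markers from 70.8 to 1216, highest in KO-MI. Their part in these values was not tested.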

How the results depend on the processing

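No paired analysis was possible because each group holds 1 library, so that the shared replicate number marks nothing. The causes of the shifts below were not tested. Of the 16 log2 ratios of CM1, 1 changed sign: Myh6 for MI over Sham, WT labels, was 0.19 in CM1 and -0.012 over all nuclei. Over all nuclei, the other ratios of MI over Sham for the WT labels were 0.81 for Myh7, -0.74 for Myh7b and 0.82 for the ratio of Myh7 to Myh6. For the KO labels they were 0.041 for Myh6, 1.66 for Myh7, -0.50 for Myh7b and 1.62 for the ratio. KO over WT for Myh6 in Sham was 0.086. With TMM factors and with median-of-ratios size factors, MI over Sham for the WT labels was 0.28 and 0.28 for Myh6 and 0.80 and 0.79 for Myh7, that of Myh6 for the KO labels 0.11 and 0.13, and KO over WT in Sham 0.27 and 0.26 for Myh6, -0.18 and -0.18 for Myh7 and -0.34 and -0.35 for Myh7b. KO over WT in MI for Myh6 was 0.084 with the second. Leaving the mitochondrial genes and Malat1 out of the denominator gave 0.22 for Myh6 in MI over Sham, WT labels, and 0.16 in KO over WT, Sham. Thinning gave 0.23 and 0.16 for the same 2 values. With the transferred label, MI over Sham for the WT labels was 0.15 for Myh6, 0.82 for Myh7 and 0.67 for the ratio, and 0.15 for Myh6 under the KO labels.

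2 alternatives for CM1, and CM4 without nuclei with atrial UMIs, were chosen after seeing the data. In nuclei at or under the median mitochondrial share, MI over Sham for Myh6 was 0.22 and 0.20 for the WT and KO labels, and KO over WT in MI was 0.42 for Myh7 and 0.31 for the ratio. In nuclei with no myeloid marker UMI, which were 205 of 1415 in WT-MI, MI over Sham for the WT labels was 0.12 for Myh6, -0.64 for Myh7b and 0.66 for the ratio. For the KO labels it was 0.15 for Myh6, 1.44 for Myh7 and -0.34 for Myh7b. KO over WT in MI was 0.15 for Myh6, 0.44 for Myh7, -0.13 for Myh7b with an interval that includes 0, and 0.29 for the ratio, and the ratio in Sham was -0.35. In CM2, CM4 and CM5 no called direction turned, although several intervals of thinned values include 0. Shifts past 1.5-fold were those of Myh7b in CM2, thinned (0.89 for MI over Sham, KO labels, and -1.98 for KO over WT, Sham), and Myh7b in CM4 by the transferred label (0.06 for MI over Sham, WT labels). With a minimum of 20 UMIs, genes past 1.5-fold numbered 1319 higher for MI over Sham, WT labels (854 with 50), 586 higher and 515 lower for KO over WT in MI (251 and 195), and 857 lower in Sham (446). Small sums limit CM2 and the Myh7b values of CM4 and CM5, which rest on 26 to 189 UMIs.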
